A study of Mus musculus with 12 samples.

Results

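The nuclear envelope genes examined here are Syne1, Syne2 and Syne3 (nesprins), Sun1 and Sun2 (SUN proteins), Lmna, Lmnb1 and Lmnb2 (lamins) and Emd (emerin), described across 4 groups of RNA sequencing libraries from the mouse T cell leukemia line 8946. They were chosen by name as linkers of the nuclear envelope, and because Syne1 was known to be nearly absent from every library that carried the Notch1 vector. Of the 9 genes, 8 had a row in the deposited table of 23284 gene symbols; no row carried the symbol Syne3, which is not analysed here. The values are FPKM, fragment numbers scaled to transcript length and to the mapped fragments of the library, so levels can be compared between genes per unit of length.

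The 12 libraries fell into 4 groups of 3. All cells received a pair of retroviral vectors and were sorted as positive for both GFP and NGFR. By sample title, combined libraries carried the Notch1 mutant L1601P with GFP and Zmiz1 with NGFR, Notch1-titled libraries carried L1601P with GFP and the empty NGFR vector, Zmiz1-titled libraries carried the empty MigR1 vector and Zmiz1 with NGFR, and control libraries carried both empty vectors. L1601P is a mutant of Notch1, a receptor whose cleaved form enters the nucleus and activates transcription, and Zmiz1 is a coactivator of the PIAS-like family. The cell line label names the vectors of the Notch1-titled and Zmiz1-titled groups the other way round, while the column headers of the files go with the titles. Whether the 3 libraries of a group came from separate transductions is not stated, so p-values measure only the spread between these libraries, and every result concerns a single cell line with vectors at retroviral expression levels.

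The vector genes went with the titles. Notch1 had 33.5, 36.2 and 37.2 FPKM in combined and 32.0, 42.2 and 22.1 FPKM in Notch1-titled libraries, against 1.92 to 2.34 FPKM in Zmiz1-titled and 1.797 to 1.97 FPKM in control libraries. Zmiz1 averaged 49.3 FPKM in combined, 0.212 in Notch1-titled, 70.8 in Zmiz1-titled and 0.176 in control libraries. FPKM sums lay between 549098 and 606908 per library, and read totals are unknown, so no counting error can be given. Zmiz1-titled replicate 2 correlated least with the rest (mean 0.942, where the others had 0.949 to 0.957), and the differences whose sign turned without it are given both ways. All 9 T cell markers examined were above 1 FPKM on average, and no B cell, erythroid, fibroblast, NK cell or skeletal muscle marker was. Of 7 myeloid markers only Itgam and Cd68 were above 1 FPKM on average.

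Nesprins and SUN proteins meet in the space between the nuclear membranes and form the LINC complex, which ties the nucleus to the cytoskeleton. Nesprins sit in the outer membrane, with long chains of spectrin repeats and, in the largest forms of nesprin-1 (Syne1) and nesprin-2 (Syne2), actin-binding domains at the far end. SUN proteins span the inner membrane and touch the lamina, a meshwork of A-type lamins (from Lmna) and B-type lamins (from Lmnb1 and Lmnb2), where emerin is also anchored. Lymphoid cells are known for little A-type lamin and much lamin B1, and the complex is known to move and position the nucleus in migrating leukocytes.

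Syne1 lies on mouse chromosome 10 from 5020917 to 5551482 on the minus strand (GENCODE M21, GRCm38, equal to mm10), a span of 531 kb, and the annotation gives it 9 transcripts, the longest of 27908 bases. Syne2 lies on chromosome 12 from 75818134 to 76110926 on the plus strand, and its longest transcript has 21704 bases. RefSeq places 3 starts in Syne1 and 1 in Syne2, and the 250 bases before each are shown because the level of Syne1 differed between the groups while Syne2, built alike, gives the comparison. The sequences come from RefSeq (GRCm38.p6) and read 5′ to 3′ on the gene's strand. Start 1 (chr10:5550693-5550942) lies at or a few bases from the starts of annotated transcripts of 27908 and 6990 bases, start 2 (chr10:5488315-5488564) lies near no annotated transcript start, and start 3 (chr10:5069064-5069313), near the 3′ end of the gene, is that of a transcript of 3443 bases. The Syne2 window is chr12:75818068-75818317. Capitals mark the GC box (GGGCGG or CCGCCC) in Syne1 start 1 and in Syne2, and the TATA box (TATAAA or TTTATA) in Syne1 start 2.
Syne1 start 1: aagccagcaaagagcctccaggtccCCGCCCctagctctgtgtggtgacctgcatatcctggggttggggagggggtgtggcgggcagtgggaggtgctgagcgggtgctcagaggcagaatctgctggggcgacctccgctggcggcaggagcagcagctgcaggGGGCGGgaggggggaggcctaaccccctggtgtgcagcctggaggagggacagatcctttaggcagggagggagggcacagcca
Syne1 start 2: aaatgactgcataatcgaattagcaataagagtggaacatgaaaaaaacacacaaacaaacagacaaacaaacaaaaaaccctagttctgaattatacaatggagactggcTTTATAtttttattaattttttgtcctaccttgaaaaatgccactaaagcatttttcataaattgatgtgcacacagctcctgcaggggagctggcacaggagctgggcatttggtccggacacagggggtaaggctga
Syne1 start 3: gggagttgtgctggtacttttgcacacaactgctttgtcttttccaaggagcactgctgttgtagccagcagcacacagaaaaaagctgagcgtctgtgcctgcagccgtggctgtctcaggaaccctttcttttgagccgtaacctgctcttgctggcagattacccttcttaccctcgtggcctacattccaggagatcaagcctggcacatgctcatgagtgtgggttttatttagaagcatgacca
Syne2: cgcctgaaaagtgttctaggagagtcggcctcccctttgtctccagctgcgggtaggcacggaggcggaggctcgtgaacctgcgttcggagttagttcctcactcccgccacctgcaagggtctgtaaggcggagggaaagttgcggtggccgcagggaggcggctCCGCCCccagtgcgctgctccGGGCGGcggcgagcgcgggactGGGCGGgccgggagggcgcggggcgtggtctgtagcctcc

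These windows differed in composition. Syne1 start 1 was 68.0% G and C with 7 CG pairs and 2 GC boxes, start 2 was 38.8% G and C with 1 TATA box, and start 3 was 50.8% G and C with none of the motifs searched. Syne2 was 70.0% G and C with 26 CG pairs and 3 GC boxes, against medians of 52.4% and 6 CG pairs over 32851 windows of the same length. A GC box was present in 32.7% of all windows and a TATA box in 12.4%. The core letters of the site of RBPJ, the DNA-binding partner of Notch (TGGGAA or TTCCCA, 21.6% of all windows), and the E-box CACGTG (6.02%) were found in none of the 4 windows on either strand. The annotated 5′ end of Syne1, at 5551482, lies upstream of its windows. Sequence outside the windows was not searched, so this absence holds for the windows only. No pair of the matches shown overlaps. The deposited value is a single number per gene, so it does not tell which of the Syne1 starts was in use.

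Syne1 was nearly absent where the Notch1 vector was present and moderately expressed elsewhere. It had 0.0550, 0.0286 and 0.0271 FPKM in the combined libraries and 0.0420, 0.0159 and 0.0116 FPKM in the Notch1-titled libraries, against 6.46, 13.5 and 7.71 FPKM in the Zmiz1-titled libraries and 6.27, 8.21 and 7.72 FPKM in the control libraries. All 6 libraries with the Notch1 vector lay below all 6 without it, and the lowest control library was 149 times the highest Notch1-titled library. This separation chose the genes, so it is given without a test. Summed levels of some marker lists also differed between these groups without overlap. That of the 7 myeloid markers was 60.9 to 63.1 FPKM in combined and 53.1 to 60.2 FPKM in Notch1-titled libraries, against 93.5 to 101 FPKM in Zmiz1-titled and 99.2 to 103 FPKM in control libraries. Nearly all of it was Itgam, an integrin chain. Cd68 lay between 0.957 and 2.09 FPKM. Elane was at 0 in all libraries, and Lyz2, Csf1r, Cd14 and Mpo reached at most 0.240 FPKM in any library. The 9 T cell markers summed to 3930 to 4129 FPKM in combined against 3627 to 3805 FPKM in Zmiz1-titled libraries, and to 4246 to 4725 FPKM in Notch1-titled against 4047 to 4166 FPKM in control libraries. The 5 fibroblast markers summed to 0.426 to 0.632 FPKM in combined against 0.659 to 0.870 FPKM in Zmiz1-titled libraries, and to 0.622 to 0.710 FPKM in Notch1-titled against 1.02 to 1.18 FPKM in control libraries. The part of the myeloid, T cell and fibroblast lists in the Syne1 values was not tested.

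The mean was 0.0232 ± 0.0165 FPKM in Notch1-titled against 7.40 ± 1.01 FPKM in control libraries (every ± without another name is an SD over 3 libraries), a ratio of 0.00314. In combined against Zmiz1-titled libraries the means were 0.0369 ± 0.0157 and 9.22 ± 3.75 FPKM, a ratio of 0.00400. On the scale used for all fits, log2(FPKM + 1), the differences were -3.03 and -3.24, which understates the ratios because the Notch1 vector libraries are far below 1 FPKM. With a pseudocount of 0.1 the same differences were -5.93 and -6.02. Read totals are unknown, so the number of fragments behind values this low cannot be given. Their order among the 6 Notch1 vector libraries cannot be read. Syne1 was listed above 0 in all 12 libraries. In bulk RNA, fewer cells with the transcript and less transcript per cell cannot be told apart.

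Zmiz1 without the Notch1 mutant was the contrast that the choice of genes did not use. Syne1 averaged 9.22 ± 3.75 FPKM in Zmiz1-titled and 7.40 ± 1.01 FPKM in control libraries, and the ranges overlapped. The log2 difference of 0.23 (95% interval -0.21 to 0.67) was not called (limma adjusted p = 0.688). That interval shares its spread with the 6 Notch1 vector libraries, where Syne1 was near 0 and hardly varied on this scale. In a fit of the Zmiz1-titled and control libraries alone the interval was wider, -0.40 to 0.86 (limma adjusted p = 0.778). Zmiz1-titled replicate 2 held the highest value, and without it the difference was -0.051 (limma adjusted p = 0.962). "Called" means a Benjamini-Hochberg adjusted p under 0.05 over the 10152 genes that averaged 1 FPKM or more, which included all 8 nuclear envelope genes; Syne1 passed that filter through the Zmiz1-titled and control libraries.

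**Figure D1:**
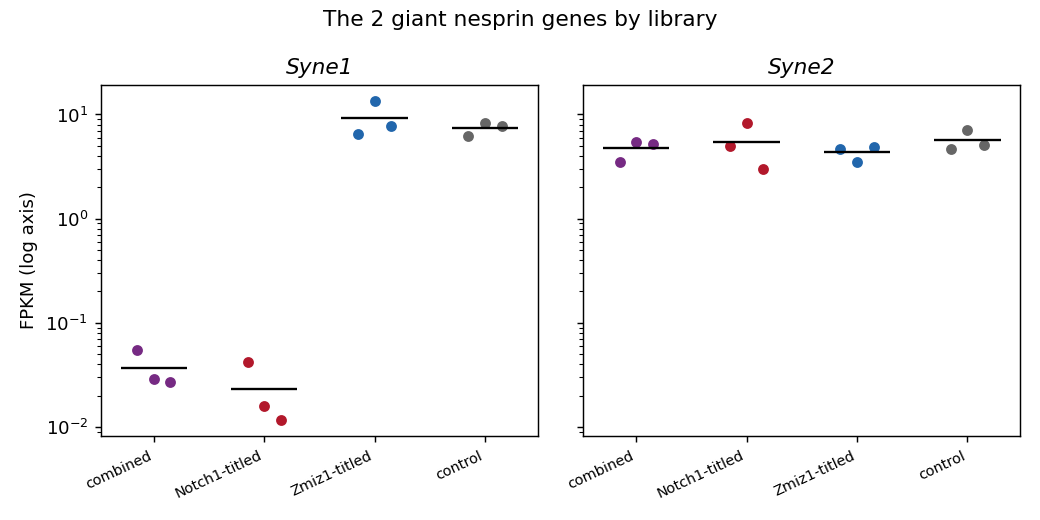
FPKM of Syne1 and Syne2 on a log axis, with a point per library and a line at the group mean (n = 3 per group). Syne1 sits between 0.0116 and 0.0550 FPKM in the 6 Notch1 vector libraries and between 6.27 and 13.5 FPKM in the other 6, while Syne2 spans 3.01 to 8.31 FPKM with overlapping groups.

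Syne2, the other giant nesprin, did not share the pattern. It had 3.51, 5.43 and 5.21 FPKM in combined, 4.99, 8.31 and 3.01 FPKM in Notch1-titled, 4.63, 3.47 and 4.87 FPKM in Zmiz1-titled and 4.65, 7.11 and 5.13 FPKM in control libraries. Both the highest and the lowest value were Notch1-titled libraries, and the 4 groups overlapped. Its log2 difference was -0.11 (95% interval -0.71 to 0.49, limma adjusted p = 0.889) in Notch1-titled against control libraries and 0.095 (-0.51 to 0.70, limma adjusted p = 0.896) in combined against Zmiz1-titled libraries, and -0.026 there without Zmiz1-titled replicate 2. The sign of the first depended on the library: it was -0.42 without Notch1-titled replicate 2 and 0.19 without Notch1-titled replicate 3.

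Other long transcripts also spread in the Notch1-titled group. The 184 other tested genes with an annotated transcript of at least 10 kb deviated from their group mean by a median of 0.12, 0.17 and -0.30 (log2) in Notch1-titled replicates 1, 2 and 3, and by -0.030 to 0.051 in the other 9 libraries. Syne2 deviated by -0.018, 0.62 and -0.60 in the same 3 libraries. The 2143 tested genes with short transcripts (at most 2 kb) deviated there by a median of -0.093, -0.026 and 0.12. In the other 9 libraries they deviated by -0.031 to 0.035. The part of transcript length in the Syne2 values was not tested.

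The makeup of the measured nesprin pool followed Syne1. Syne1 made up 0.862 ± 0.590% of the summed Syne1 and Syne2 FPKM in combined, 0.471 ± 0.330% in Notch1-titled, 66.4 ± 11.5% in Zmiz1-titled and 57.0 ± 3.25% in control libraries. The sum itself was 4.75 ± 1.03, 5.46 ± 2.68, 13.5 ± 3.05 and 13.03 ± 2.20 FPKM in the same order of groups. Summed SUN over summed nesprin FPKM was 21.6 to 30.7 in combined and 14.4 to 34.4 in Notch1-titled libraries, against 7.22 to 10.2 in Zmiz1-titled and 7.35 to 9.59 in control libraries. These figures contain Syne1 and are given as a description.

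The SUN proteins, the inner membrane partners of nesprins, were not called in any comparison. Sun1 had 7.54, 8.29 and 9.12 FPKM in combined, 8.06, 8.82 and 8.08 FPKM in Notch1-titled, 7.62, 9.98 and 8.51 FPKM in Zmiz1-titled and 7.88, 8.26 and 8.29 FPKM in control libraries. The highest was Zmiz1-titled replicate 2, and all groups overlapped. The log2 difference of Sun1 was 0.027 (95% interval -0.17 to 0.23, limma adjusted p = 0.926) in Notch1-titled against control libraries, and -0.0040 under median ratio scaling. Without Zmiz1-titled replicate 2, its difference turned to 0.038, against -0.055 with it, in combined against Zmiz1-titled libraries, to -0.014, against 0.079, in Zmiz1-titled against control libraries, and to 0.011, against -0.082, in the interaction.

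Sun2 was the more abundant SUN gene. It had 102, 109.9 and 114 FPKM in combined, 99.1, 111 and 95.8 FPKM in Notch1-titled, 105, 113 and 119 FPKM in Zmiz1-titled and 96.8, 104 and 109 FPKM in control libraries, with overlap between every pair of groups. Its log2 difference was -0.019 (95% interval -0.19 to 0.15, limma adjusted p = 0.939) in Notch1-titled against control libraries, and -0.048 (-0.21 to 0.12, limma adjusted p = 0.807) in combined against Zmiz1-titled libraries. Sun2 stood at 13.1 ± 0.553 times Sun1 in combined, 12.3 ± 0.374 in Notch1-titled, 13.01 ± 1.499 in Zmiz1-titled and 12.7 ± 0.413 in control libraries.

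Emd, the gene of emerin, an inner membrane protein that binds lamins, varied most in the Zmiz1-titled group. It had 82.8, 71.7 and 72.5 FPKM in combined, 76.2, 66.8 and 73.9 FPKM in Notch1-titled, 83.5, 55.2 and 74.7 FPKM in Zmiz1-titled and 70.6, 64.4 and 64.0 FPKM in control libraries. The lowest value was Zmiz1-titled replicate 2, and the combined libraries lay above the control libraries without overlap (log2 difference 0.19, 95% interval -0.10 to 0.47, limma adjusted p = 0.514), while the other pairs of groups overlapped. The log2 difference was 0.12 (95% interval -0.17 to 0.41, limma adjusted p = 0.688) in Notch1-titled against control libraries. In combined against Zmiz1-titled libraries it was 0.11 (-0.18 to 0.39, limma adjusted p = 0.741), and -0.064 without Zmiz1-titled replicate 2 (limma adjusted p = 0.848).

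**Figure D2:**
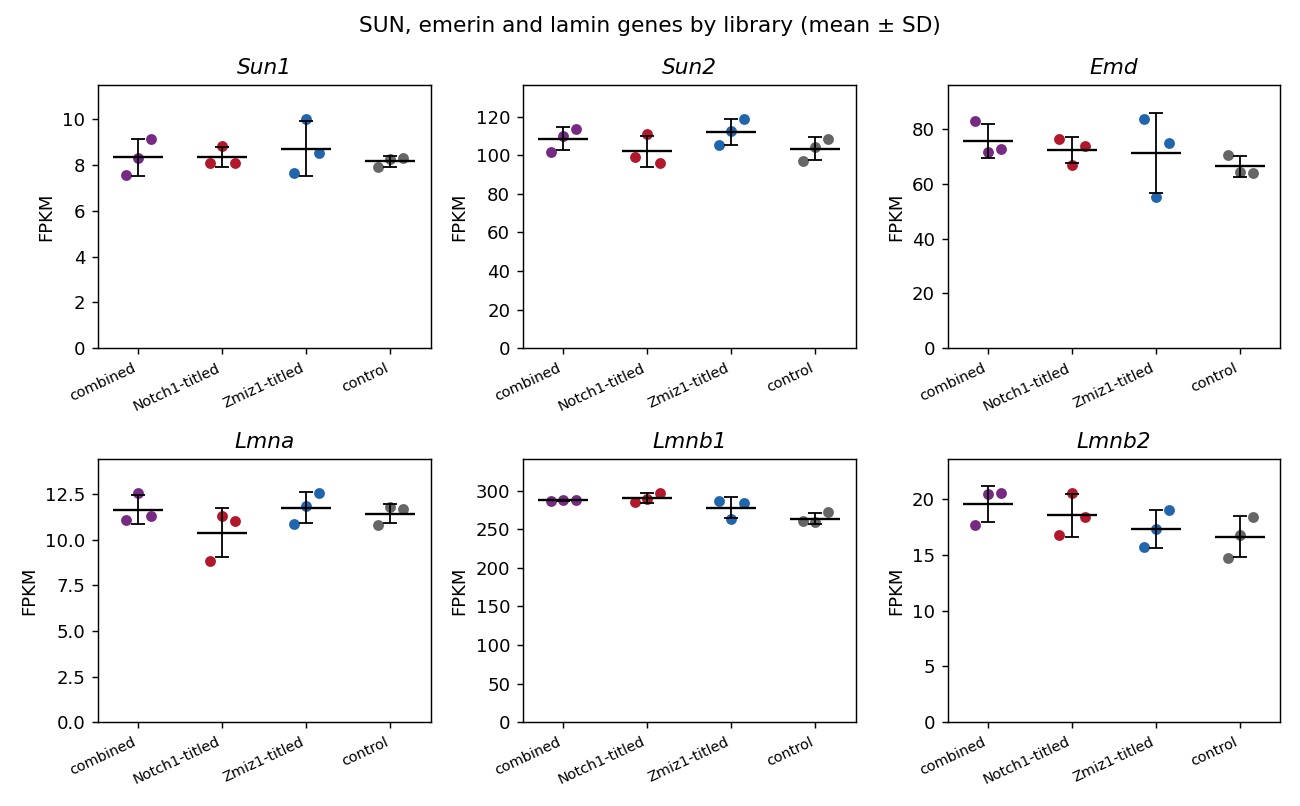
FPKM of the SUN, emerin and lamin genes, with a point per library, a line at the group mean and bars of 1 SD (n = 3 per group); each axis starts at 0. The groups overlap for Sun1, Sun2, Lmna and Lmnb2. For Emd the combined libraries (71.7 to 82.8) lie above the control libraries (64.0 to 70.6). For Lmnb1 the combined (286 to 288) and Notch1-titled (285 to 297) libraries lie above the control libraries (259 to 272), as do Zmiz1-titled replicates 1 and 3.

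Lmnb1, the gene of lamin B1, was the most abundant of the set in all 12 libraries. It had 286, 288 and 288 FPKM in combined, 285, 289.7 and 297 FPKM in Notch1-titled, 287, 263 and 285 FPKM in Zmiz1-titled and 260.2, 259 and 272 FPKM in control libraries. Both groups with the Notch1 vector lay above the control group without overlap. Zmiz1-titled replicates 1 and 3 also lay above every control library, and Zmiz1-titled replicate 2 lay within the control range. The log2 difference of 0.14 in Notch1-titled against control libraries (95% interval 0.030 to 0.25) had an unadjusted p of 0.0169 in limma and was not called (adjusted p = 0.145). In combined against control libraries it was 0.12 (0.015 to 0.23, limma adjusted p = 0.197), and in combined against Zmiz1-titled libraries 0.048 (-0.060 to 0.16, limma adjusted p = 0.681). In Zmiz1-titled against control libraries it was 0.076 (-0.033 to 0.18, limma adjusted p = 0.580). Without Zmiz1-titled replicate 2 the difference was 0.0092 in combined against Zmiz1-titled and 0.115 in Zmiz1-titled against control libraries. An unadjusted p under 0.05 was reached by 18.8% of all genes in Notch1-titled against control libraries and by 19.1% in combined against control libraries.

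Lmnb2, the gene of lamin B2, was less abundant. It had 17.7, 20.5 and 20.6 FPKM in combined, 16.8, 20.6 and 18.4 FPKM in Notch1-titled, 15.7, 17.3 and 19.1 FPKM in Zmiz1-titled and 14.7, 16.8 and 18.4 FPKM in control libraries, and the groups overlapped. The largest of its log2 differences was 0.22 in combined against control libraries (95% interval -0.0082 to 0.46, limma adjusted p = 0.281). With the replicate number as a block in the fit, that difference was called (limma adjusted p = 0.0397). In Notch1-titled against control libraries, without the block, the difference was 0.15 (-0.082 to 0.38, limma adjusted p = 0.506).

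Lmna, the gene of lamins A and C, had 11.1, 12.6 and 11.3 FPKM in combined, 8.83, 11.3 and 11.03 FPKM in Notch1-titled, 10.9, 11.8 and 12.6 FPKM in Zmiz1-titled and 10.8, 11.8 and 11.7 FPKM in control libraries. The lowest was Notch1-titled replicate 1, and the groups overlapped. Its log2 difference was -0.13 (95% interval -0.33 to 0.071, limma adjusted p = 0.505) in Notch1-titled against control libraries and -0.011 (-0.21 to 0.19, limma adjusted p = 0.968) in combined against Zmiz1-titled libraries. Lmna made up 3.65 ± 0.222% of the summed lamin FPKM in combined, 3.25 ± 0.357% in Notch1-titled, 3.83 ± 0.315% in Zmiz1-titled and 3.91 ± 0.159% in control libraries. The Notch1-titled libraries, at 2.84 to 3.52%, lay below the control libraries, at 3.79 to 4.09%. The combined libraries, at 3.52 to 3.91%, overlapped the Zmiz1-titled libraries, at 3.47 to 4.05%. This share is a description, with no test run on it.

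By level the genes kept an order in which Syne1 alone changed place. In combined, Notch1-titled, Zmiz1-titled and control libraries alike, Lmnb1 was highest, followed by Sun2, Emd, Lmnb2 and Lmna, and no neighbours among these 5 overlapped within a group. Sun1 came next in combined, Notch1-titled and control libraries. In Zmiz1-titled libraries Syne1 stood between Lmna and Sun1 and overlapped both. In control libraries Syne1 stood between Sun1 and Syne2 and overlapped both. In Notch1-titled libraries Sun1 and Syne2 overlapped. In combined and Notch1-titled libraries Syne1 was last, below Syne2 without overlap.

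Counted together, and without a replicate block, none of the 7 genes besides Syne1 was called in any of the 5 pairwise comparisons or the interaction. In Notch1-titled against control libraries 0 of 7 were called by limma, where 5.49% of all genes were, and 1 of the 7 (Lmnb1) had an unadjusted p under 0.05. Their log2 differences lay between -0.13 and 0.15, with a median of 0.027 beside 0.025 over all genes. In combined against Zmiz1-titled libraries 0 of 7 were called (3.86% of all genes) and 0 had an unadjusted p under 0.05 in limma, with differences between -0.055 and 0.16 and a median of 0.048 beside 0.021 over all genes. With so few genes and these shares, a count of 0 is near the background. A miss of the threshold does not show that levels were equal: the 95% intervals of the 7 genes reached from -0.71 to 0.49 in the first comparison and from -0.51 to 0.70 in the second, both ends set by Syne2.

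Without a replicate block, the remaining comparisons gave no call either. In Zmiz1-titled against control libraries 0 of 8 genes, Syne1 included, were called (2.11% of all genes) and 0 had an unadjusted p under 0.05 in limma, with differences between -0.31 (Syne2) and 0.23 (Syne1). In combined against Notch1-titled libraries 0 of 7 were called (1.51%) and 0 had an unadjusted p under 0.05 in limma, with differences between -0.10 (Syne2) and 0.16 (Lmna). Syne1 differed by 0.019 in that comparison, where both groups were near 0, and the ranges overlapped. In combined against control libraries 0 of 7 were called by limma (6.46%) and 1 (Lmnb1) had an unadjusted p under 0.05. For the interaction, whether the effect of both vectors departs from the sum of each alone on the log2 scale, 0 of 7 were called by limma (0.069%) and 0 had an unadjusted p under 0.05, with estimates between -0.091 (Lmnb1) and 0.20 (Syne2). Combined and Notch1-titled libraries share their control libraries, so those comparisons are not independent.

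**Figure D3:**
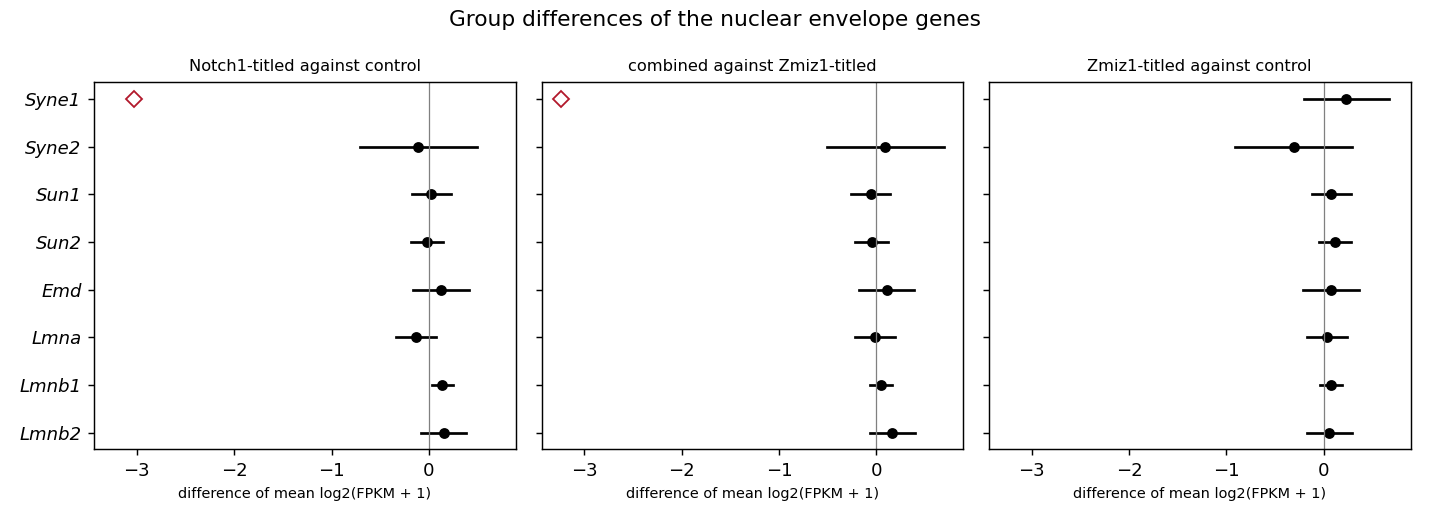
Difference of group means of log2(FPKM + 1) for the 8 genes in 3 comparisons, with 95% intervals from limma; open diamonds mark Syne1 where its difference chose the genes and no interval is given. Every interval except that of Lmnb1 in Notch1-titled against control libraries (0.030 to 0.25) spans 0, and Syne1 stands at -3.03 and -3.24 in the comparisons with the Notch1 vector and at 0.23 in Zmiz1-titled against control libraries, where its interval shares the spread of all 4 groups.

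Levels of the genes around Syne1 are given for comparison. The annotation places 12 other protein-coding genes with a start within 1 Mb of either end of Syne1 or inside it, of which 11 had a row under their own or an older symbol and 6 passed the filter. The comparisons were Notch1-titled against control, combined against Zmiz1-titled and Zmiz1-titled against control libraries, with 0 of 6 called in each by limma, where 5.49%, 3.86% and 2.11% of all genes were, so for 6 genes a count of 0 is near the background. Beyond the 5′ end of Syne1, Fbxo5, the gene of Emi1, averaged 115.5 FPKM in combined, 123 in Notch1-titled, 117 in Zmiz1-titled and 106 FPKM in control libraries (log2 difference 0.21, limma adjusted p = 0.0684, in Notch1-titled against control). Mtrf1l, a mitochondrial translation release factor, averaged 4.52, 5.01, 5.54 and 4.43 FPKM in the same order. Beyond the 3′ end, Zbtb2, a zinc finger factor, averaged 18.6, 17.3, 22.6 and 20.3 FPKM, with log2 differences of -0.21 (limma adjusted p = 0.176) in Notch1-titled against control and -0.25 (limma adjusted p = 0.134) in combined against Zmiz1-titled libraries. Akap12, a kinase anchoring protein, averaged 33.8, 29.8, 30.0 and 28.3 FPKM. Myct1 and Vip, the nearest genes beyond the 5′ end, were at 0 in all libraries. Esr1, the estrogen receptor, lay next to the 3′ end and was above 0 in only 1 library, at 0.0155 FPKM. Gm10097, annotated inside Syne1 on the other strand, had no row here. The library kit keeps no strand, so reads from exons of Gm10097 that overlapped Syne1 exons would not be told apart from those of Syne1. Whether their exons overlap was not examined.

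**Figure D4:**
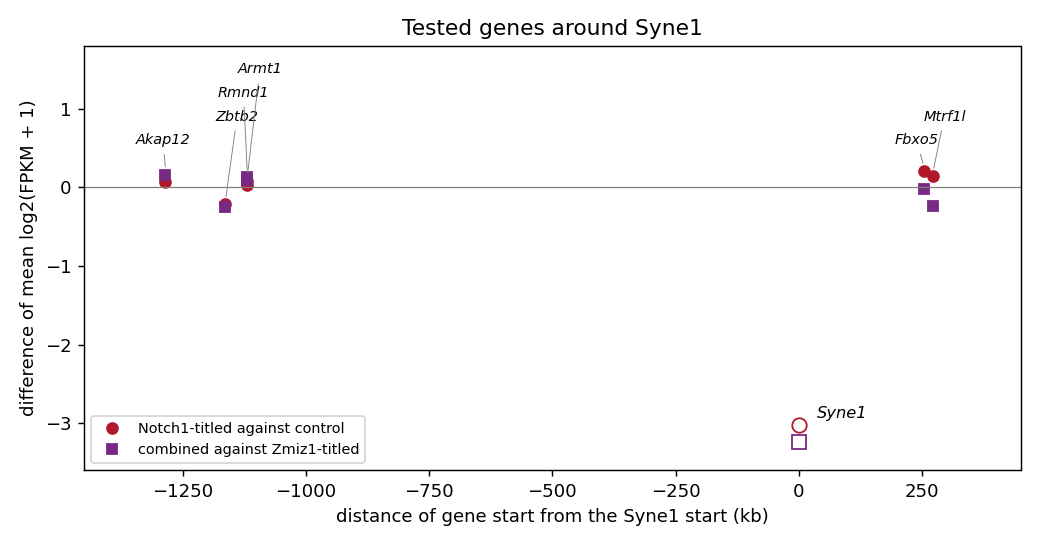
Difference of group means of log2(FPKM + 1) for Syne1 (open symbols) and the 6 tested genes around it (filled symbols), by distance of each gene's start from the Syne1 start in kb. Syne1 lies at -3.03 and -3.24, and the 6 genes lie between -0.25 and 0.21.

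Other genes of the nuclear envelope were counted list by list, beside the shares over all genes. Of 26 genes listed as partners of the LINC complex (torsins and their activators, motors and adaptors, testis forms of SUN and KASH proteins), 20 passed the filter, and 0 of the 20 were called in Notch1-titled against control or combined against Zmiz1-titled libraries (2 and 1 at an unadjusted p under 0.05 in limma). Over all genes 5.49% and 3.86% were called in these comparisons and 18.8% and 15.8% had an unadjusted p under 0.05, so these counts, and those of the next lists, show nothing particular to the list. Their median log2 differences were 0.092 and 0.026, beside 0.025 and 0.021 over all genes. Syne4, the gene of nesprin-4, listed here under the older symbol AI428936, averaged 0.115 FPKM, and Sun3 and Sun5 averaged 0 FPKM. Of 20 inner membrane and lamina partners 18 passed the filter and 0 were called in either comparison (2 and 2 at an unadjusted p under 0.05 in limma), with medians of 0.10 and 0.053. Among them Tmpo, the gene of the lamina-associated polypeptides LAP2, averaged 325, 327, 307 and 295 FPKM in combined, Notch1-titled, Zmiz1-titled and control libraries, and Lbr, the lamin B receptor, 213, 228, 225.5 and 217 FPKM. Tmpo and Lbr were named outside the rule for named genes.

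Of 30 nuclear pore genes all passed the filter, and 0 were called in Notch1-titled against control or combined against Zmiz1-titled libraries (4 and 3 at an unadjusted p under 0.05 in limma, all higher), with medians of 0.054 and -0.00065. In Zmiz1-titled against control libraries, where 2.11% of all genes were called and 12.8% had an unadjusted p under 0.05, 1 of 30 was called, a count near the background: Nup107, of the pore's outer ring, averaged 53.2 ± 3.23 FPKM in Zmiz1-titled and 44.4 ± 1.19 FPKM in control libraries (log2 difference 0.25 ± 0.056 SE, limma adjusted p = 0.0459). That call ended at an adjusted p of 0.122 to 0.199 without any 1 control library, at 0.0821 and 0.108 without Zmiz1-titled replicates 2 and 3, at 0.0551 and 0.0720 without Notch1-titled replicates 1 and 2, and at 0.0671 to 0.0845 without any 1 combined library. No LINC partner and no inner membrane or lamina gene was called there (1 and 1 at an unadjusted p under 0.05 in limma).

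Genes built like the nesprins, with spectrin repeats, held 1 called gene of 7 tested, where 5.49% of all genes were called in Notch1-titled against control and 3.86% in combined against Zmiz1-titled libraries. Of 22 listed, 21 had a row, and those that passed the filter included Macf1 and Utrn, both with very long transcripts, at 15.99 and 22.9 FPKM on average. The median log2 differences of the 7 were -0.26 in Notch1-titled against control and -0.079 in combined against Zmiz1-titled libraries, beside 0.025 and 0.021 over all genes. Long transcripts spread in the Notch1-titled group, as described above for Syne2. The part of transcript length in these medians was not tested. Only Actn2, an alpha-actinin that crosslinks actin, was called. It averaged 28.7 ± 2.49 FPKM in Notch1-titled and 56.9 ± 7.54 FPKM in control libraries and fell by 0.96 on the log2 scale (SE 0.14, limma adjusted p = 0.00288). It averaged 61.5 ± 9.88 FPKM in combined and 101 ± 14.97 FPKM in Zmiz1-titled libraries and fell by 0.71 (SE 0.14, limma adjusted p = 0.0202; 0.0614, 0.0672 and 0.0512 without Zmiz1-titled replicate 3 and combined replicates 1 and 3). Actn2 also rose by 0.82 in Zmiz1-titled against control libraries (limma adjusted p = 0.0158; 0.0657, 0.0614 and 0.0515 without control replicates 1 and 2 and Zmiz1-titled replicate 3) and by 1.06 in combined against Notch1-titled libraries (limma adjusted p = 0.00335). Macf1 averaged 14.9 ± 1.99 FPKM in combined, 15.3 ± 4.75 in Notch1-titled, 15.8 ± 0.924 in Zmiz1-titled and 18.0 ± 2.47 FPKM in control libraries.

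**Figure D5:**
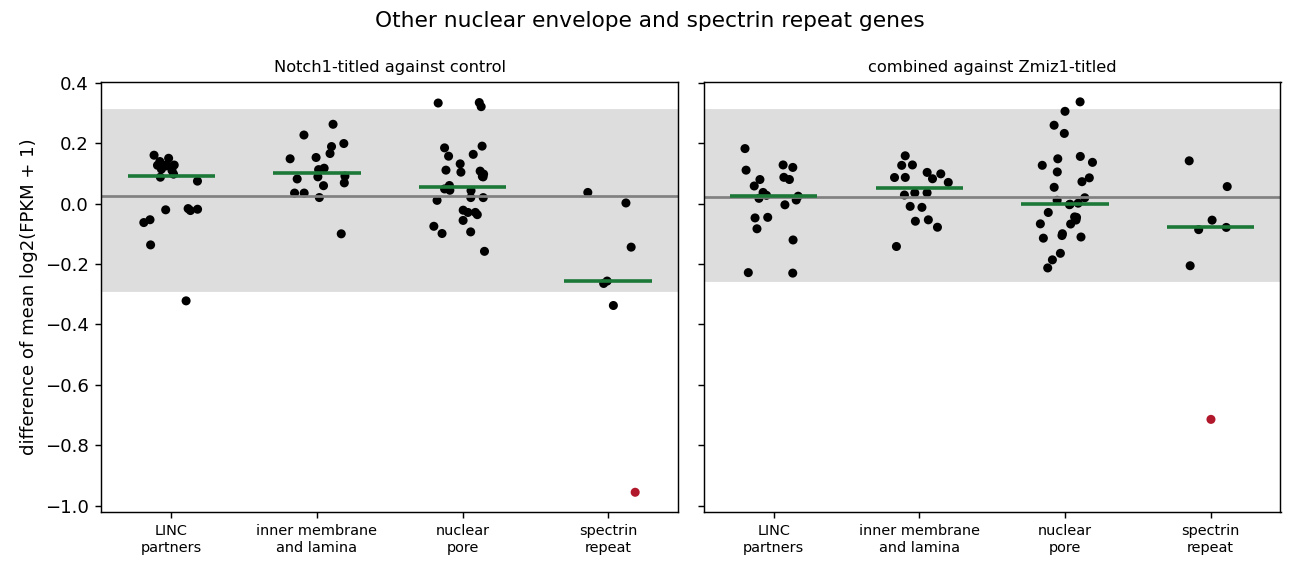
Difference of group means of log2(FPKM + 1) for the tested genes of 4 lists (20 LINC partners, 18 inner membrane and lamina genes, 30 nuclear pore genes, 7 spectrin repeat genes), with red for called genes, a green line at each list's median, a grey line at the median and a grey band over the 5th to 95th percentile of all genes. The single called gene in each panel is Actn2, at -0.96 and -0.71.

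Among all tested genes, those whose log2(FPKM + 1) rose and fell most nearly with Syne1 over the 12 libraries are given as a description. The 8 highest Pearson correlations were those of Slc43a1 (0.975), Pdcd4 (0.971), Abcg1 (0.969), Lypd6b (0.966), Atf6 (0.965), Slc12a7 (0.964), Itgam (0.964) and Tcp11l2 (0.960). Slc43a1, an amino acid transporter, averaged 145.7, 144.5, 179 and 184 FPKM in combined, Notch1-titled, Zmiz1-titled and control libraries, a far smaller range than that of Syne1. Atf6, a sensor of the unfolded protein response, averaged 18.1, 16.6, 27.8 and 27.4 FPKM. The 8 lowest correlations, between -0.988 and -0.982, were those of Spsb4, Mecom, H2-T10, Pdia6, Ctage5, Anapc5, Notch1 and H2-Bl. Mecom, a transcription factor of blood stem cells, averaged 12.05, 11.1, 0.632 and 0.546 FPKM. Spsb4, an adaptor of a ubiquitin ligase, averaged 12.9, 12.1, 4.30 and 3.92 FPKM. The 12 points share 4 groups and fall into 2 separate clusters, with and without the Notch1 vector, so such a correlation mainly records that split.

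Of the other nuclear envelope genes, Syne2 (-0.027), Sun1 (0.18), Sun2 (0.23) and Lmna (0.33) had correlations with Syne1 nearer 0 than Lmnb1 (-0.76), Lmnb2 (-0.52) and Emd (-0.46). For Lmnb1 itself, whose values spanned only 259 to 297 FPKM, the 5 most alike genes were Lmf2, Mblac1, Nuf2, Melk and Ift20, with correlations of 0.900 to 0.919; Nuf2 is a kinetochore protein and Melk a kinase of dividing cells.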

How the data were processed

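RNA of 12 samples of the line 8946 was sequenced with the TruSeq mRNA v2 kit, per the labels' protocols. The deposited values are FPKM, 1 per gene symbol and library, per the file headers. The submitters' processing notes name Cuffdiff 2.1.1 and Cufflinks, the aligners Bowtie2 2.1.0.0 and TopHat2 2.0.9, FastQC 0.10.0 and the build mm10, without order or settings; the annotation, read totals and any scaling between libraries are not given in the sources used here, so depth and counting error are unknown.

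The 10152 genes that averaged 1 FPKM or more were fitted as log2(FPKM + 1) with limma 3.58.1 (R 4.3.3): 4 group means by sample title, moderated variances with an intensity trend, all 12 libraries, 6 two-sided comparisons, Benjamini-Hochberg adjustment over all genes and a threshold of 0.05. The procedure was tested on simulated data. The nuclear envelope genes, lists and alternatives were chosen with earlier results of these data known; all members were named, up to 4 called genes per other list, and the 8 highest, 8 lowest (Syne1) and 5 highest (Lmnb1) correlations, predicted and small RNA genes passed over. Where a list symbol had no row, an older symbol from RefSeq was used. Transcript lengths from GENCODE M21 matched 90.3% of tested genes. The deviation of long and short transcripts, and the left-out libraries for Nup107 and Actn2, were added after seeing the data. Alternatives were a pseudocount of 0.1, a filter at 5 FPKM or none, scaling by median ratios, quantile normalization, a replicate block, robust variances, fits of 2 groups alone and each library left out. A group of 2 remaining libraries took its spread from the shared model. Figures used matplotlib 3.10.9.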

Additional observations from a re-analysis of the deposited data

How the results depend on the processing

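The 7 genes besides Syne1 (8 in Zmiz1-titled against control libraries) gave 0 calls in each comparison under every alternative run except one. Syne1 fell out of the test at a mean of 5 FPKM, which left 7 genes there, and the interaction has no fit of 2 groups alone. With the replicate number as a block, Lmnb2 was called in combined against control libraries (log2 difference 0.22, limma adjusted p = 0.0397), so the count was 1. Whether the replicate numbers pair the libraries was not settled by these values. Deviations of same-numbered libraries correlated between -0.18 and 0.27 over 18 pairs, with 6 over 0.1. In every group replicate 1 was the lowest for Sun1, Lmna and Lmnb2 and the highest for Emd. For Syne2, Sun2 and Lmnb1 no replicate number was lowest or highest in every group. The replicate block changed the counts over all genes from 557 to 1059 (Notch1-titled against control), 392 to 721 (combined against Zmiz1-titled), 214 to 365 (Zmiz1-titled against control), 153 to 260 (combined against Notch1-titled) and 656 to 1158 (combined against control). With 1 library left out these counts ranged over 272 to 989, 184 to 505, 74 to 241, 75 to 306 and 339 to 1090. In fits of 2 groups alone, they were 155 in combined against Zmiz1-titled, 49 in Zmiz1-titled against control and 1386 in combined against control libraries. At a mean of 5 FPKM they were 121 in Zmiz1-titled against control and 101 in combined against Notch1-titled libraries. The interaction count of 7 was 3 with a pseudocount of 0.1 or a mean of 5 FPKM, 18 without a filter and 4 under quantile normalization.

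The Syne1 differences were -5.93 (Notch1-titled against control) and -6.02 (combined against Zmiz1-titled) with a pseudocount of 0.1, from the construction of that scale, and -3.13 to -2.96 and -3.44 to -2.96 with 1 library left out. Uncalled values changed sign in 55 of 852 refits of single genes, all of size up to 0.20. Under median ratio scaling Sun1 was at -0.0040 in Notch1-titled against control, 0.0037 in combined against Notch1-titled and -0.00027 in combined against control libraries. Under quantile normalization Lmnb1 was at 0.013 in combined against Notch1-titled, Sun2 at -0.00020 and Lmna at -0.0047 in combined against control libraries, and the interaction was 0.026 for Sun2 and 0.018 for Emd. With 1 library left out, the ranges that crossed 0 were, in Notch1-titled against control libraries, -0.42 to 0.19 for Syne2, -0.012 to 0.047 for Sun1 and -0.081 to 0.025 for Sun2. In combined against Zmiz1-titled libraries they were -0.026 to 0.26 for Syne2, -0.14 to 0.038 for Sun1, -0.062 to 0.034 for Lmna and -0.064 to 0.23 for Emd. In Zmiz1-titled against control libraries they were -0.051 to 0.43 for Syne1, -0.014 to 0.16 for Sun1, -0.0091 to 0.087 for Lmna, -0.022 to 0.13 for Lmnb2 and -0.045 to 0.25 for Emd. In combined against Notch1-titled libraries they were -0.40 to 0.20 for Syne2, -0.065 to 0.058 for Sun1, -0.029 to 0.00031 for Lmnb1 and -0.0020 to 0.10 for Emd. In combined against control libraries they were -0.038 to 0.085 for Sun1 and -0.026 to 0.056 for Lmna. For the interaction they were -0.095 to 0.51 for Syne2, -0.16 to 0.011 for Sun1, -0.073 to 0.034 for Sun2, -0.057 to 0.095 for Lmnb2 and -0.19 to 0.11 for Emd. Nup107 also lost its call at 0.0506 to 0.203 under a pseudocount of 0.1, a mean of 5 FPKM, quantile normalization, robust variances and a fit of 2 groups alone. Actn2 lost its call in fits of 2 groups alone, at 0.103 in combined against Zmiz1-titled and 0.0986 in Zmiz1-titled against control libraries. Sec13 was the 1 pore gene called in combined against Zmiz1-titled libraries under quantile normalization. Read depth is unknown, which limits all values below 1 FPKM, Syne1 in the Notch1 vector libraries first. The cause of these shifts was not tested.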
